A study of Mus musculus with 3 samples.

Results

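The clustered histone genes encode the replication-dependent H1, H2A, H2B, H3 and H4 proteins, and 64 of the 17931 genes in a single-cell RNA-seq table of the mouse corneal epithelium belong to them. They were chosen by symbol alone, as every gene whose name is Hist followed by a digit, and all 64 had at least 1 UMI, a counted molecule. By type they are 6 H1 genes, 17 H2A genes, 16 H2B genes, 12 H3 genes and 13 H4 genes. In the mouse genome 51 lie on chromosome 13, 10 on chromosome 3, 2 on chromosome 11 and 1 on chromosome 6, and 60 are annotated with a single exon.

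The cells came from untreated C57BL/6J mice and make up 3 libraries of 1 group, each pooled from several animals. Library 1 pooled 4 corneas from 2 males at 20 weeks of age, library 2 pooled 4 from 2 females at 11 weeks, and library 3 pooled 7 from 7 males at 10 weeks, so that age, sex and the number of animals cannot be told apart from the library. The authors' annotation put the 38111 cells into 8 classes. These are 3186 cells of TAC2 and 4136 of TAC1, read here as transit-amplifying, 737 limbal cells, 5240 superficial cells (labelled Squam), 13447 wing cells of the intermediate layers, 2422 conjunctival cells, 114 immune cells and 8829 basal cells. Comparisons between classes were made over the 3 libraries, and the labels do not state whether histone transcripts helped to define the classes.

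Most cellular mRNAs end in a poly(A) tail, but the mRNAs of clustered histone genes end just after a short stem-loop that the stem-loop binding protein recognises. They accumulate while DNA is copied, when new nucleosomes need core histones and linker H1, and are degraded when copying stops. Some of these genes also give longer, polyadenylated transcripts, which are known from differentiated cells. Because the libraries were primed on poly(A), the levels below are of the captured part only, one gene's level cannot be ranked against another's as abundance in the cell, and a difference between classes may be one of level or of polyadenylation, which cannot be told apart.

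The ends of 6 members show how their annotated transcripts differ, and whether the ends set what was captured was not tested. Each stem-loop stands in capitals with up to 5 bases before it and up to 9 after it, read from GENCODE M21 transcripts on GRCm38. Hist1h1c encodes a linker histone, Hist1h2ap, Hist3h2a and Hist1h2be encode core H2A, core H2A and core H2B, Hist1h3e encodes core H3 and Hist1h4d encodes core H4.
Hist1h1c, chr13:23739507-23739536, plus strand: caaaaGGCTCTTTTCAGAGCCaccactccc
Hist1h2ap, chr13:21833026-21833049, minus strand: aaaaaGGCTCTTTTCAGAGCCatc
Hist3h2a, chr11:58955167-58955196, plus strand: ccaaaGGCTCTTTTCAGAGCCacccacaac
Hist1h2be, chr13:23585522-23585551, minus strand: ccaaaGGCTCTTTTCAGAGCCacccaacag
Hist1h3e, chr13:23561894-23561923, minus strand: aaaacGGCTCTTTTAAGAGCCacctccatt
Hist1h4d, chr13:23581945-23581974, plus strand: ccaaaGGCCCTTTTCAGGGCCactaccttc
The Hist1h2ap transcript ends 3 bases after the stem-loop, whereas the other 5 windows lie inside longer 3′ untranslated regions. A stem-loop match followed the coding end in 46 members, and of the 18 without one, 15 have under 50 bases of annotated 3′ untranslated region. In the transcript with the longest end, the matched stems of 4 H1, 11 H2A, 9 H2B and 9 H3 genes all began GGCTC, while of 12 H4 genes 10 began GGCCC and 2 began GGTCC. Hist1h2bc, an H2B gene of 2 exons with 742 bases of annotated 3′ untranslated region, had no stem-loop in its annotated transcript. An annotated 3′ untranslated region of at least 300 bases was present in 21 members, called long-ended below, and 43 members had less or none.

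The promoters of 3 members illustrate the motifs shared within types, with the CCAAT box (CCAAT), the TATA box (letters TATAAA) and the octamer ATTTGCAT in capitals on either strand, from 250 bases before to 50 after the start in RefSeq's GRCm38.p6. The H2A genes Hist2h2ac and Hist2h2aa1 are shown because they moved in opposite directions in the superficial class, and Hist1h4d because it had the most captured UMIs of the H4 genes.
Hist2h2ac, chr3:96220831-96221130, minus strand: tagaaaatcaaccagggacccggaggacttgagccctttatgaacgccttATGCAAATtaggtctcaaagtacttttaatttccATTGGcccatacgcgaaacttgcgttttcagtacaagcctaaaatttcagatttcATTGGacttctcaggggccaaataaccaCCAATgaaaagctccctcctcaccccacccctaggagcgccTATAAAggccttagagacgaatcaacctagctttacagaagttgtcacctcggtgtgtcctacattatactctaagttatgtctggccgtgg
Hist2h2aa1, chr3:96245247-96245546, plus strand: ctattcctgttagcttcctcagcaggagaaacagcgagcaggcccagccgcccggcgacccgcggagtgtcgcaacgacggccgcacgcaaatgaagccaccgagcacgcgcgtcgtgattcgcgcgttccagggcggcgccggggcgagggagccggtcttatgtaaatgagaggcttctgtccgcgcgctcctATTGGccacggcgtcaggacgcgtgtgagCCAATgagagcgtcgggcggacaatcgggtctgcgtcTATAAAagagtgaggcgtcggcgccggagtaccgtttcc
Hist1h4d, chr13:23581318-23581617, plus strand: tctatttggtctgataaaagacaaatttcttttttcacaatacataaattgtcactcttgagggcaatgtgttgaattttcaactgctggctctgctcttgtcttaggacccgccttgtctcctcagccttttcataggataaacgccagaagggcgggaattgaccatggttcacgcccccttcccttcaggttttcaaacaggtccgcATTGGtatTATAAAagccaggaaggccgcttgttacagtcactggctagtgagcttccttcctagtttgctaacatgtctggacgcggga
Of the 59 members with a RefSeq promoter, 50 held CCAAT (84.7%), against 37.9% of 27025 promoters of all genes. Every H1, H2A, H2B and H3 promoter held it, and 3 of 12 H4 promoters did (25.0%). TATAAA was present in 33 (55.9%, against 14.2% of all promoters). The octamer ATTTGCAT was found in 6 of 17 H2A and 5 of 14 H2B promoters and in 0 of the other types, 11 in all (18.6%, against 1.8%). Each motif was searched on its own, so that matches of different motifs may overlap, and a match describes the letters only. Some windows of neighbouring H2A and H2B genes cover the same DNA on opposite strands, as for Hist1h2ai and Hist1h2bl. Hist1h2ao and Hist1h2ap were given a window in common, so the shares are not of independent promoters.

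The libraries held 9488, 11273 and 17350 cells with 187340736, 177449217 and 190393121 UMIs and medians of 16159.5, 13232 and 8334 UMIs per cell, so that library 3 was the shallowest per cell. Clustered histone genes gave 339545 UMIs, 0.0612% of the total, and 9 members with over 10000 UMIs each held 84.1% of them, while 10 members had under 100. Of 37969 distinct barcodes, 142 occurred in more than 1 library. Division markers separated TAC2 from basal cells, with a mean Mki67 level of 354 CPM (counts per 1000000 UMIs) in TAC2 and 5.09 CPM in basal cells. Top2a was at 464.5 and 2.49 CPM and Pcna at 167 and 49.9 CPM in the same order. TAC1 had Mki67 at 16.9 CPM and Top2a at 42.3 CPM, but Pcna at 212 CPM, above TAC2. Ptprc, which marks immune cells, reached 399 CPM in the immune class and at most 0.06 CPM in the 7 epithelial classes.

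The summed clustered histone level was highest in TAC2. As CPM of each class's own total, it was 3731, 4552 and 3237 in TAC2 of libraries 1, 2 and 3 (3840 ± 664, SD, n = 3), against 429, 462 and 515 in basal cells (469 ± 43.2). The groups did not overlap, and the ratio within a library was 8.69, 9.84 and 6.29. TAC1, the other transit-amplifying class, had 290, 398 and 333 CPM (340 ± 54.5), below the basal level of the same library each time. Superficial cells had 507, 541 and 849 CPM (632 ± 188), against 226, 284 and 304 CPM in wing cells (271 ± 40.6). Limbal cells had 518 ± 86.4 CPM and conjunctival cells 316 ± 59.3 CPM. The immune class had 645, 1057 and 451 CPM on 62, 207 and 16 UMIs, too few to order it against the others. In order of the mean, TAC2 stood apart. The ranges of superficial, limbal and basal cells overlapped, although superficial cells were above basal cells within each library, at ratios of 1.18, 1.17 and 1.65. The ranges of TAC1, conjunctival and wing cells overlapped as well, with wing cells the lowest of these within each library.

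**Figure D1:**
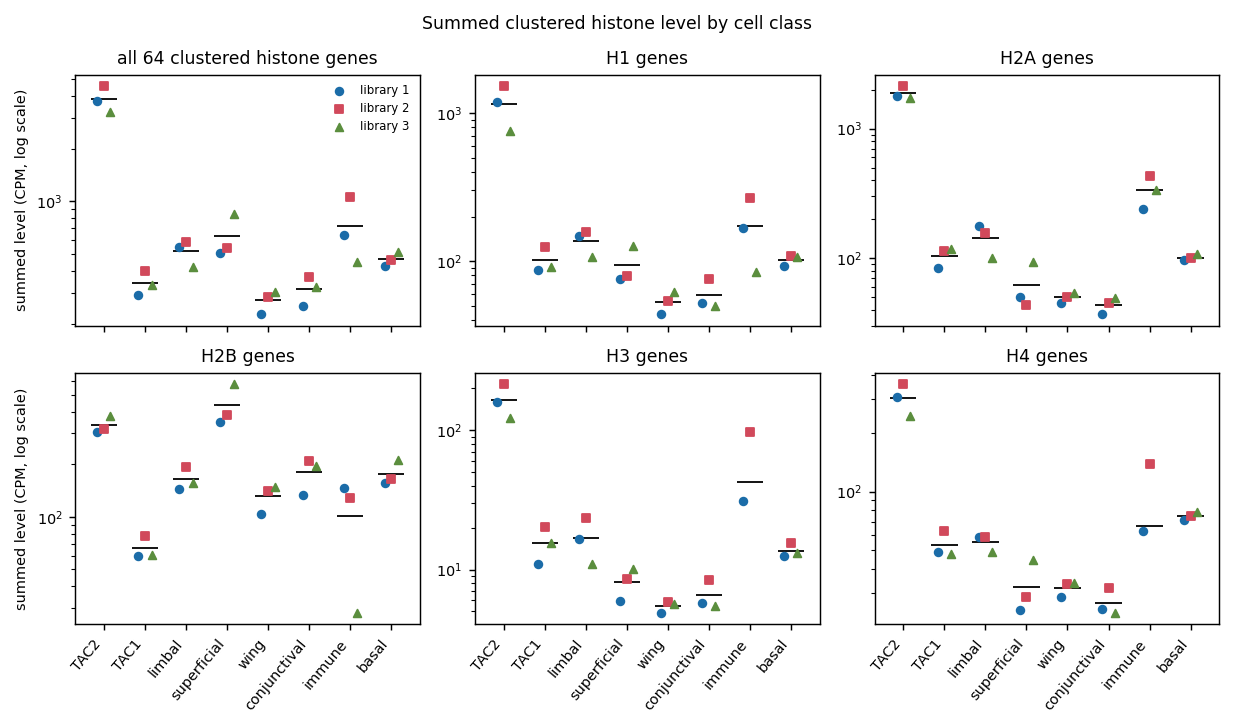
Summed level of all 64 clustered histone genes and of each type (CPM of the class's UMIs, log axes) by class, 1 point per library and a bar at the mean of 3. For all genes TAC2 lies between 3237 and 4552 CPM, above every other class. For the H2B sum superficial cells lie above TAC2 in each library, and Hist1h2bc gives a mean of 429 of their 435 CPM.

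Classes differed in which types made up the sum. In TAC2, H2A genes gave 49.4% of member UMIs, H1 genes 29.5%, H2B genes 8.96%, H4 genes 7.88% and H3 genes 4.26%. In superficial cells H2B genes gave 69.0%, and in basal cells 37.6%, with H1 at 21.9%, H2A at 21.6%, H4 at 16.1% and H3 at 2.93%. The mean TAC2 to basal ratio was 18.7 for H2A, 12.0 for H3, 11.3 for H1, 4.05 for H4 and 1.90 for H2B. Most H2B transcripts outside TAC2 came from 1 gene, Hist1h2bc, and in TAC2 it gave a mean of 182 of 334 CPM of H2B. Of the UMIs of all members it held 68.1% in superficial cells, 54.6% in conjunctival cells, 45.4% in wing cells, 14.9% in TAC1, 5.03% in TAC2 and 33.6% in basal cells. Without Hist1h2bc the sum was 203 ± 69.0 CPM in superficial cells, 148 ± 18.1 in wing cells, 3658 ± 726 in TAC2 and 311 ± 17.8 in basal cells (SD, n = 3). The superficial sum was then below the basal one. TAC1 had 244, 337 and 288 CPM without Hist1h2bc, against 290.5, 317 and 324 CPM in basal cells. It was thus above basal cells in library 2, unlike its full sum.

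Of the 64 members, 52 had their highest mean level in TAC2, 5 in superficial cells, 2 in conjunctival cells and 5 in the thinly sampled immune class. Hist1h2ap, an H2A gene, had 1207, 1397 and 1127 CPM in TAC2, 41.1, 59.6 and 65.4 in TAC1, and 31.9, 29.7 and 45.3 in basal cells. All 50-base words of its last 300 bases recur in other genes, so its reads and those of its copies could be exchanged by the counting. Hist1h1b, a linker histone gene, had 549, 717 and 278 CPM in TAC2, 20.4, 32.9 and 20.3 in TAC1, and 8.03, 10.5 and 6.55 in basal cells. Both genes separate TAC2 from the other epithelial classes in every library. Hist1h2bc had 345, 376 and 566 CPM in superficial cells, 97.7, 133 and 140 in wing cells, 157, 130 and 260 in TAC2, and 139, 146 and 191 in basal cells, so its TAC2 and basal values overlap. Hist1h1c, a linker histone gene with a long end, had 153, 127 and 225 CPM in TAC2, 55.7, 46.4 and 111 in superficial cells, 20.9, 19.9 and 38.3 in wing cells, and 32.7, 29.8 and 58.9 in basal cells. Hist3h2a, which overlaps the gene Trim17, had 23.2, 25.9 and 34.3 CPM in TAC2 and 33.4, 31.9 and 20.5 in basal cells, and 43.9, 36.8 and 39.2 CPM in limbal cells, its highest mean among the epithelial classes.

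**Figure D2:**
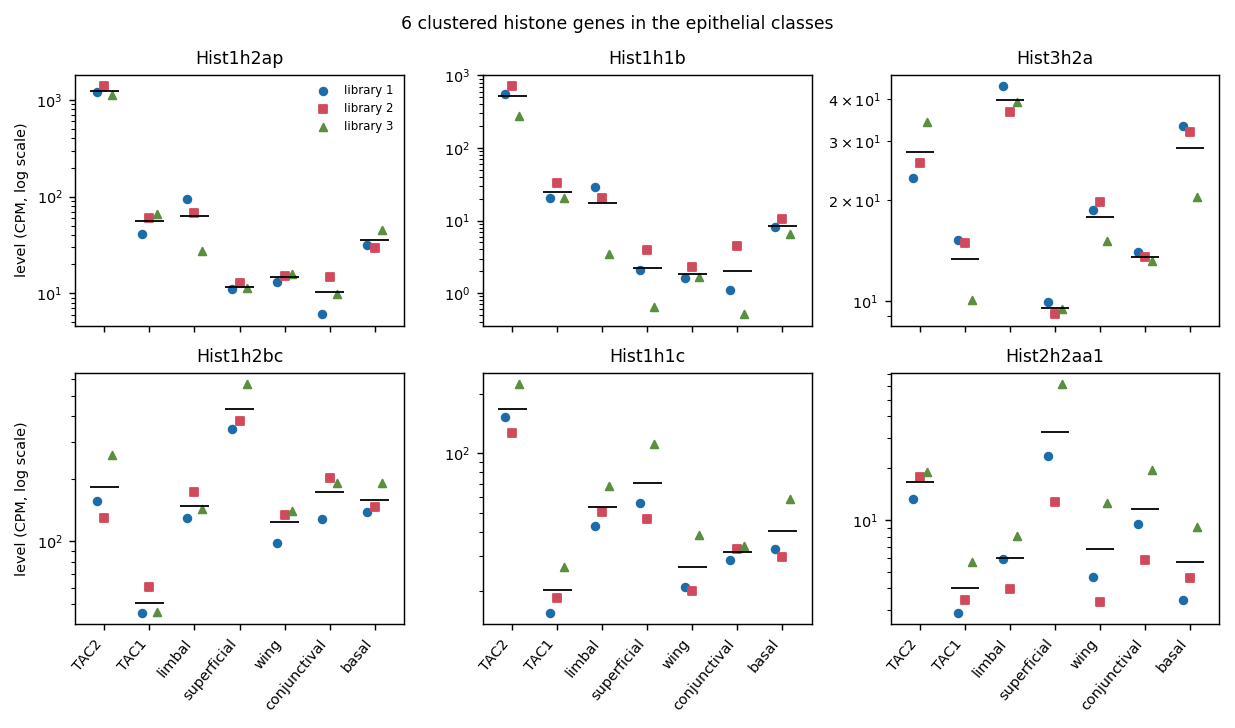
Level of 6 clustered histone genes (CPM of the class's UMIs, log axes) in the 7 epithelial classes, 1 point per library and a bar at the mean. Hist1h2ap and Hist1h1b stand highest in TAC2, whereas Hist1h2bc has its highest values, 345 to 566 CPM, in superficial cells.

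Long-ended members carried 30.2% ± 1.39 of member UMIs in TAC2, 56.2% ± 3.72 in TAC1, 72.2% ± 7.72 in limbal cells, 90.2% ± 1.44 in superficial cells, 83.2% ± 0.62 in wing cells, 87.0% ± 1.12 in conjunctival cells and 74.2% ± 0.20 in basal cells (SD, n = 3). TAC2 had the lowest share in all 3 libraries. The share of cells with any member UMI, each cell thinned to 2000 UMIs, was 87.9% ± 2.19 in TAC2, 46.7% ± 5.89 in TAC1, 62.3% ± 7.16 in superficial cells, 41.6% ± 4.29 in wing cells and 57.2% ± 2.56 in basal cells. Unthinned it was 97.6%, 90.7%, 97.7%, 92.5% and 91.7% in the same order. The wing share stands beside the others as that of a class with few dividing cells, with Mki67 at 2.20 CPM, and the median depth was 9702.5 UMIs per cell in TAC2 and 14083 in wing cells. How much of any share comes from free RNA in the droplets was not tested.

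Nearly all testable members rose in TAC2 against basal cells. Of 57 tested with edgeR's quasi-likelihood test, with the library as a block and p-values adjusted over all genes tested by the Benjamini-Hochberg method at a threshold of 0.05, 54 were higher in TAC2 and 0 lower, against 24.9% of all genes tested that were higher and 23.7% that were lower. At an unadjusted p below 0.05, 55 were higher and 0 lower, and DESeq2 called 51 higher and 0 lower. Every one of the 54 was higher in 3 of 3 libraries, and the median log2 fold change over the tested members was 2.98, against -0.02 over all genes tested. All tested H1 (5), H3 (11) and H4 (11) genes rose, with 13 of 14 H2A and 14 of 16 H2B genes. The filter on low counts keeps a gene with enough counts in 1 of the classes, so some members were testable only through TAC2. For those the direction was largely fixed in advance, here and wherever TAC2 cells enter a comparison below. The same holds in the other comparisons for members that were testable only through 1 of the classes. In TAC1 against basal cells 40 members were testable. Levels beside a fold change are CPM scaled by TMM, the trimmed mean of M values, over the classes compared, and SE is that of the log2 fold change.

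The steepest differences were in genes nearly silent in basal cells. Hist1h2af, an H2A gene, had 31.8, 27.7 and 19.1 CPM in TAC2, against 0.227, 0.246 and 0.0785 CPM in basal cells, a log2 fold change of 7.11 ± 0.169 (SE, adjusted p = 2.54e-19). Hist1h3b, an H3 gene, had 27.2, 39.2 and 19.5 CPM in TAC2, against 0.227, 0.287 and 0.196 CPM in basal cells (6.87 ± 0.155, adjusted p = 9.92e-20). For both genes every TAC2 value lies far above every basal value. Both were testable only through TAC2, so their direction was largely fixed in advance. Hist1h2ap had 1173, 1372 and 1100 CPM in TAC2, against 32.0, 30.5 and 47.6 CPM in basal cells (5.06 ± 0.295, adjusted p = 0.00555). Among members with many UMIs the change was smaller for Hist1h3e (2.98), Hist1h1e (2.73) and Hist1h4d (2.60), all on the log2 scale. Hist1h3c (5.44), Hist1h1b (5.84) and Hist1h2ae (4.51) changed more, and Hist1h1c (2.00), Hist1h4i (1.85), Hist1h2be (1.67) and Hist1h4h (0.94) less. Hist1h1e shares exon sequence on the same strand with Hist1h2be, so their counts are uncertain. Members with short or no annotated ends were higher in 36 of 36 tests with a median of 3.68, and long-ended members in 18 of 21 with a median of 1.85. In TAC1 against basal cells only 23 short-ended and 17 long-ended members were testable, so these counts are partly set by the filter. The 3 members without a call were Hist1h2bc (0.09 ± 0.126, adjusted p = 0.618), Hist3h2a (-0.09 ± 0.345, adjusted p = 0.858) and Hist2h2be (1.09 ± 0.462, adjusted p = 0.0584). Each was called in some other settings. Hist3h2a was lower in TAC2 without library 3 (-0.46, adjusted p = 5.85e-09). Hist1h2bc was higher without library 2 (0.24, adjusted p = 0.000288) and with cells thinned to 2000 UMIs (0.56, adjusted p = 1.68e-12). Hist2h2be was higher without library 1 (1.60, adjusted p = 0.014), with total UMI scaling (adjusted p = 0.0397) and with no filter on low counts (adjusted p = 0.0359).

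TAC1 did not share the rise of TAC2. Against basal cells, 10 of 40 tested members were higher in TAC1 and 13 lower, against 21.1% and 20.5% of all genes tested, and the median was -0.02 for members and for all genes alike. The higher ones were led by the linker histone genes Hist1h1a, at 1.92 ± 0.195 on the log2 scale (adjusted p = 7.33e-15), and Hist1h1b, at 1.55 ± 0.076 (adjusted p = 2.36e-34), and by Hist1h3a at 1.47. Hist1h2an, at 1.13, Hist1h4a, at 0.70, and Hist1h2ae, at 0.18, were higher where most called genes of their types were lower. The lower ones were led by the H2B genes Hist3h2ba (-2.12) and Hist1h2bc (-1.59 ± 0.209, adjusted p = 0.0309) and by Hist1h3d (-1.44), while Hist3h2a was at -1.09 and Hist1h1c at -0.97. Hist1h2bc had 45.5, 60.5 and 45.8 CPM of the class total in TAC1, below the basal values given above in each library, but without library 1 its adjusted p was 0.299. Hist1h2ap, at 0.65, did not pass the test (adjusted p = 0.114). By end, of 23 tested short-ended members 10 were higher and 4 lower, whereas of 17 tested long-ended ones 0 were higher and 9 lower. Without the library block 4 members were higher and 6 lower.

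Set directly against TAC1, TAC2 was higher in 54 of 56 tested members and lower in 0, with backgrounds of 18.6% and 20.6% of all genes tested and a median of 3.195 for the members. At an unadjusted p below 0.05, 56 were higher and 0 lower, and DESeq2 called 54 higher and 0 lower, of which 52 are shared with edgeR's 54. Hist1h2af led at 5.19 ± 0.140 (adjusted p = 1.81e-15), followed by Hist1h2ak, at 5.12 on 154 UMIs in TAC2 and 6 in TAC1, and Hist1h3b, at 5.004. Hist3h2a (0.88, adjusted p = 0.0615) and Hist1h2bc (1.66, adjusted p = 0.08) did not pass. DESeq2 called both higher (adjusted p = 0.0293 and 0.000119), and did not call Hist1h4n and Hist2h4. Without the library block both were called as well (adjusted p = 0.013 and 0.00339). Hist3h2a was also called without any 1 library (adjusted p = 0.0106, 0.0288 and 4.85e-12 without libraries 1, 2 and 3), and Hist1h2bc without library 2 (adjusted p = 0.00045).

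**Figure D3:**
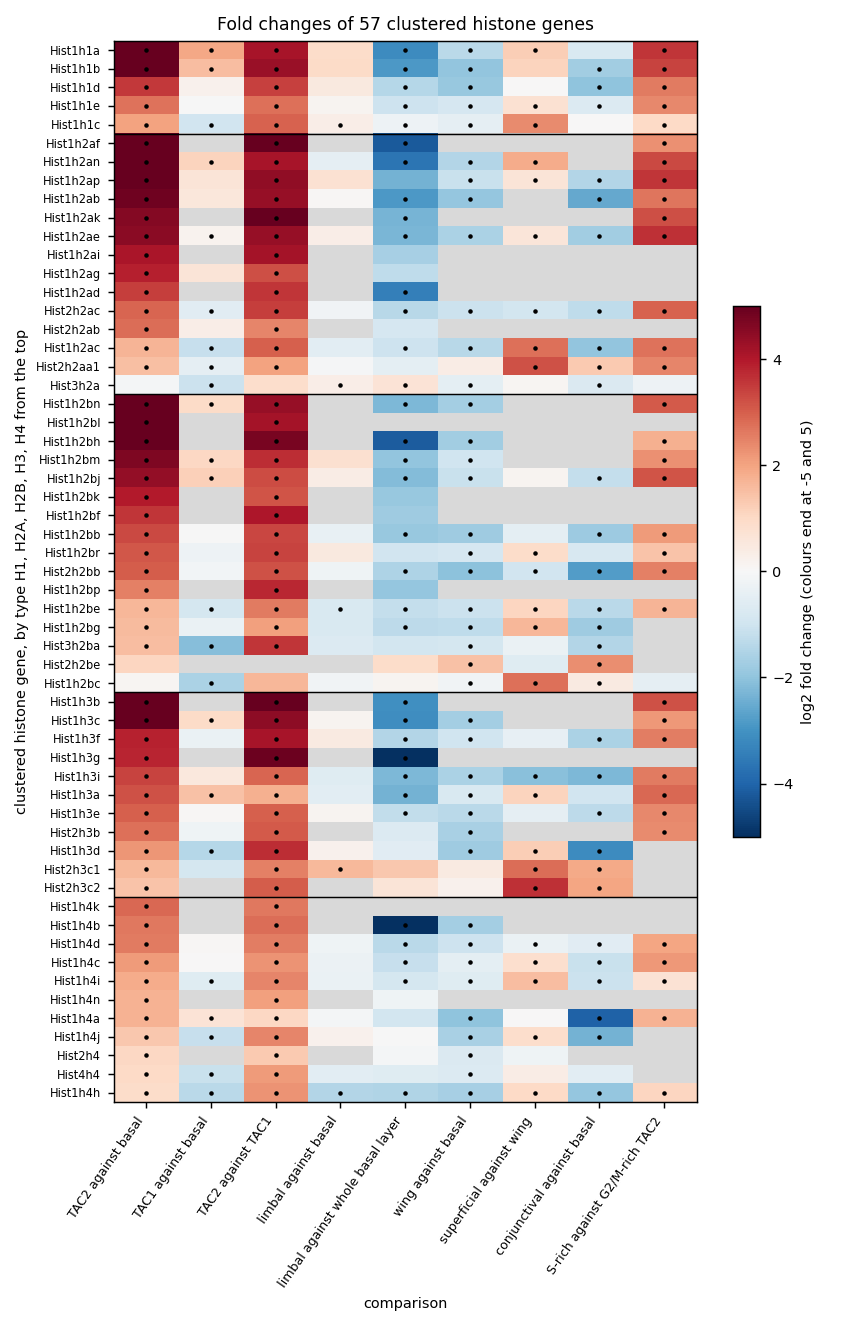
Log2 fold changes (TMM scaling; red higher, blue lower, grey not tested, a dot for an adjusted p below 0.05) of 57 clustered histone genes, in rows by type, in 9 comparisons. TAC2 against basal cells and against TAC1 has 54 members called higher each, and TAC1 against basal cells has 10 higher and 13 lower. With total UMI scaling the superficial column moves down by 0.98, and 3 of its members called higher are called lower.

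Genes that supply histones were mostly higher in TAC1 as well as in TAC2. A list of 37 factors for histone gene transcription, 3′ end processing and chromatin assembly, of which 36 are in the table, had 28 of 35 tested members higher in TAC1 than in basal cells and 0 lower, against 21.1% and 20.5% of all genes tested. In TAC2 against basal cells 29 of 36 were higher and 2 lower, against 24.9% and 23.7%. At an unadjusted p below 0.05 the TAC1 counts were 29 higher and 0 lower. In TAC2 against TAC1, 4 of 35 were higher and 10 lower, against 18.6% and 20.6%, so that the lower share is not far from that of all genes. Slbp, the stem-loop binding protein, had 119, 131 and 121 CPM in TAC1, against 37.9, 37.3 and 27.9 CPM in basal cells (1.84 ± 0.084, adjusted p = 8.59e-06). In TAC2 it had 101, 118 and 72.4 CPM, against 39.0, 38.4 and 28.7 CPM in basal cells (1.45 ± 0.058, adjusted p = 3.16e-15), and TAC2 and TAC1 did not differ by the test (-0.41 ± 0.156, adjusted p = 0.156). Nasp, a chaperone of H1 and of H3 with H4, was at 2.01 in TAC1 against basal cells and -0.91 in TAC2 against TAC1, and Casp8ap2, needed for histone pre-mRNA processing, at 1.70 and -0.91. Npat, a coactivator of histone gene transcription, was at 1.10 and -0.35, and E2f1, a transcription factor of S phase entry, at 4.92 and -1.47. Asf1b, an H3 and H4 chaperone, was higher in both, at 4.44 and 1.30. Every value in these pairs passed the test, and the pairs share the TAC1 sums.

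**Figure D4:**
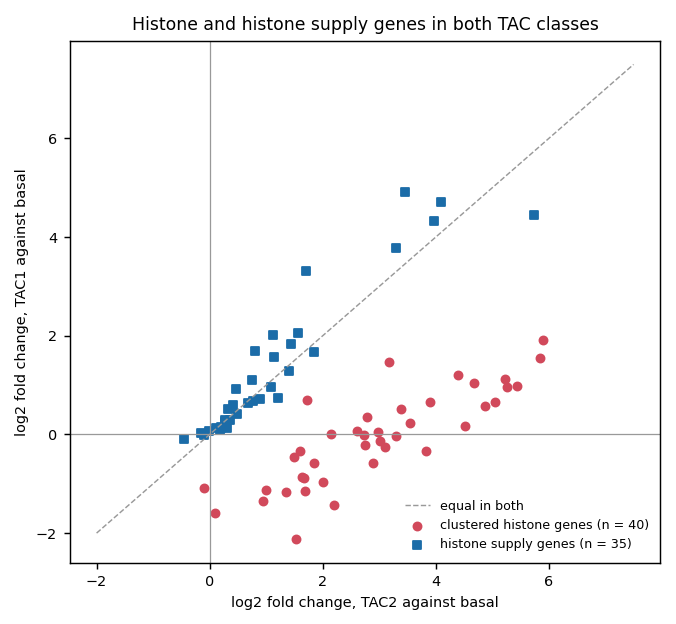
Log2 fold change in TAC2 against basal cells (horizontal) and in TAC1 against basal cells (vertical), which share the basal sums, for 40 clustered histone genes and 35 histone supply genes. The histone genes lie below the dashed line of equal values, around 0 on the vertical axis, and most supply genes lie near or above it.

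Histone genes outside the clusters were mostly higher in TAC2 too. Of 11 tested, 8 were higher and 1 lower than in basal cells, against 24.9% and 23.7% of all genes tested. Cenpa, the centromeric H3 variant, was at 6.32 on the log2 scale, H2afx, the H2A variant phosphorylated at DNA breaks, at 4.15 and H2afz, a replacement H2A variant, at 1.81. H1f0, a linker histone of non-dividing cells, was at 1.18. H3f3a and H3f3b encode the same replacement H3 protein, and H3f3b was at 0.43 while H3f3a, at 0.00, had no call.

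Within TAC2, most members were higher in cells rich in S phase transcripts than in cells rich in G2/M transcripts. Cells thinned to 2000 UMIs were split by summed S phase and G2/M transcripts, without any histone gene except Cenpa in the G2/M list, into cells at or above the library's upper quartile of one list and at or below its median of the other. The S-rich sets held 92, 146 and 148 cells and the G2/M-rich sets 81, 154 and 179 cells, of 694, 941 and 1364 TAC2 cells with enough UMIs. With 99, 151 and 269 cells within 1 UMI of the S limit, the sets are ranges and not types. The summed member level was 5469, 7288 and 6599 CPM in S-rich cells, against 901, 1351 and 735 CPM in G2/M-rich cells, a ratio of 6.81 ± 1.90 (SD, n = 3). Of 36 tested members, 34 were higher in S-rich cells and 0 lower, against 19.5% and 15.1% of all genes tested, with a median of 2.42. At an unadjusted p below 0.05 the counts were the same, and DESeq2 called 32 higher and 0 lower.

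Hist1h1a was at 3.58 ± 0.172 on the log2 scale (adjusted p = 6.08e-20). Hist1h2ap had 2371, 2691 and 3231 CPM in S-rich cells, against 202, 317 and 179 CPM in G2/M-rich cells (3.57 ± 0.307, adjusted p = 0.0164). Hist1h2ae had 609, 820 and 1289 CPM in S-rich cells, against 53.9, 113 and 40.04 CPM in G2/M-rich cells (3.65 ± 0.552, adjusted p = 0.046), and without library 2 its adjusted p was 0.166. Hist3h2a (-0.24, adjusted p = 0.494) and Hist1h2bc (-0.46, adjusted p = 0.644) were again the 2 without a call, though without library 3 both were called lower, at -0.82 (adjusted p = 0.0182) and -1.11 (adjusted p = 8.6e-11). Of 31 tested supply genes outside both lists, 20 were higher in S-rich cells and 0 lower by edgeR, with a median of 0.72. Of the 11 other histone genes 2 were higher and 5 lower, against 19.5% and 15.1% of all genes tested, among them H2afx at -0.77 and H2afz at -0.27, and Cenpa, which the split used.

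TAC2 cells at or below the median of both lists, 224, 265 and 525 cells, had 1254, 1643 and 1938 CPM of members, a description without a test. That was above the G2/M-rich level in each library, although their S phase list summed to 561, 757 and 506 CPM, against 1106, 1160 and 964 CPM in G2/M-rich cells. They were also the shallower cells, with medians of 11821.5, 9521 and 5665 UMIs, against 21107.5, 16153.5 and 9408.5 UMIs in S-rich cells. Their Hist1h2bc level was 383, 359 and 633 CPM, against 14.7, 37.9 and 90.4 CPM in S-rich cells and 67.4, 65.1 and 77.6 CPM in G2/M-rich cells. Hist1h1c had 306, 217 and 502 CPM in cells low in both, 72.4, 105 and 115 CPM in S-rich cells and 55.1, 54.5 and 55.8 CPM in G2/M-rich cells. In each library the cells low in both had the highest value of either gene, while Hist1h2ap, at 90.9, 278 and 130 CPM in those cells, was far below its S-rich level.

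**Figure D5:**
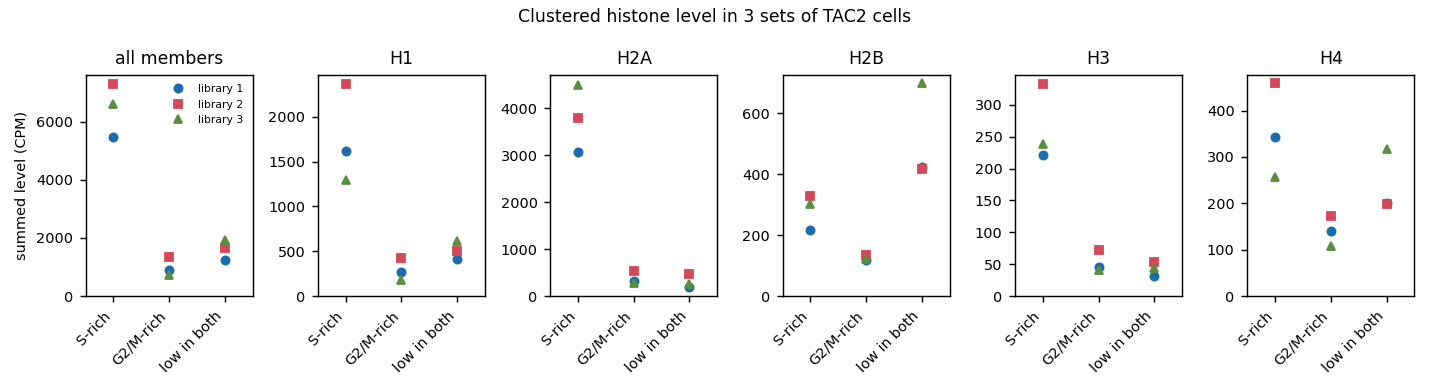
Summed level (CPM) of all clustered histone genes and of each type in TAC2 cells rich in S phase transcripts, rich in G2/M transcripts and low in both, 1 point per library. All members together are highest in S-rich cells at 5469 to 7288 CPM, whereas the H2B sum is highest in the cells low in both. There Hist1h2bc alone gives a mean of 459 of 512 CPM of H2B. Hist2h2be and Hist3h2ba also have their highest mean there, and every other H2B gene has it in S-rich cells.

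Members were mostly lower in wing cells, the layers above the basal one. Of 43 tested, 39 were lower than in basal cells and 1 higher, against 38.7% and 38.8% of all genes tested, and the median was -1.12. Hist2h2bb, an H2B gene, fell furthest (-2.04), followed by Hist1h4a (-2.01) and Hist1h1b (-1.99). Hist2h2be, another H2B gene, was the exception at 1.47 ± 0.284 (adjusted p = 0.000468). Hist1h2bc differed by -0.18 (adjusted p = 0.0469). As CPM of the class total it was lower in wing cells in 3 of 3 libraries, and by TMM in 2 of 3. With total UMI scaling, which lowers the median of all genes here by 0.179, it was also called lower, whereas without library 1 (adjusted p = 0.205), without library 3 (adjusted p = 0.277) and without the library block (adjusted p = 0.388) it was not called.

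In the outermost class some members were above wing cells, and the scaling decides how many. By TMM, 20 of 36 tested members were higher in superficial cells and 4 lower, against 37.9% and 41.8% of all genes tested, with a median of 0.80 for members and -0.10 for all genes. When each class was scaled by its total UMIs alone, 8 were higher and 16 lower, against 15.3% and 75.4% of all genes, and the median of all genes was -1.08. With total UMI scaling the median of all genes fell by 0.98, and the values below are by TMM. Higher under both were Hist2h3c2, Hist2h2aa1, Hist2h3c1, Hist1h2bc, Hist1h2ac, Hist1h1c, Hist1h2bg and Hist1h4i. Lower under both were Hist1h3i, Hist2h2bb, Hist2h2ac and Hist1h4d. Hist1h1e, Hist1h2ap and Hist1h2ae turned from higher to lower.

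Hist2h3c2, an H3 gene, had 2.88, 5.59 and 4.49 CPM in superficial cells, against 0.275, 0.336 and 0.389 CPM in wing cells (3.65 ± 0.202, adjusted p = 1.89e-10). Hist2h2aa1 had 31.9, 18.4 and 85.5 CPM in superficial cells, against 3.28, 2.38 and 8.90 CPM in wing cells (3.19 ± 0.076, adjusted p = 8.23e-15); its last 300 bases recur in full in Hist2h2aa2. Library 3 was well above the others in both classes for that gene. Hist2h3c1 was at 2.80, and its exons overlap Gm20634. Hist1h2bc had 471, 548 and 790 CPM in superficial cells, against 69.1, 95.7 and 99.8 CPM in wing cells (2.76 ± 0.083, adjusted p = 6.51e-12; 1.78 with total UMI scaling). Hist1h1c had 75.8, 67.5 and 155 CPM in superficial cells, against 14.8, 14.3 and 27.3 CPM in wing cells (2.38 ± 0.064, adjusted p = 3.49e-14; 1.40 with total UMI scaling). The groups overlap for none of these. Hist1h3i, with 3 UMIs in superficial and 77 in wing cells, had a CPM ratio of 0.116 (95% exact interval 0.0233 to 0.351, counting error only). Hist1h3i and Hist2h2bb needed their wing counts to pass the filter on low counts, so their lower calls were largely fixed in advance. Hist2h2bb was at -0.97, Hist2h2ac at -0.90 and Hist1h4d at -0.34. By end, of 20 tested long-ended members 12 were higher and 1 lower, and of 16 tested short-ended ones 8 were higher and 3 lower. Of all genes tested, 37.9% were higher and 41.8% lower. Of the 20 members higher here by TMM, 19 were among the 54 higher in TAC2 against basal cells, and the exception was Hist1h2bc. The 4 members lower here were also among the 54, as were 10 without a call, so this overlap does not set the 20 apart. The 2 replacement H3 genes were higher too, H3f3a at 1.21 and H3f3b at 1.32, as was H1f0 at 1.22, all by TMM and before the shift of 0.98.

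In limbal cells, the class at the corneal margin that is known to hold stem cells, few members were called against basal cells. The libraries differed in direction, with a limbal to basal ratio of the summed level of 1.27, 1.27 and 0.819. For H2A genes the ratio was 1.86, 1.55 and 0.931, so few calls do not mean equal levels. Of 36 tested, 3 were higher in limbal cells and 2 lower, against 21.4% and 18.8% of all genes tested, with a median of 0.01. Hist2h3c1 was at 1.63 (adjusted p = 0.0174), Hist1h1c at 0.35 (adjusted p = 0.00895) and Hist3h2a at 0.34 (adjusted p = 0.0213), and Hist1h2be at -0.75 (adjusted p = 0.0363). Hist1h4h, an H4 gene, was at -1.48 ± 0.168 (adjusted p = 1.62e-10), and of the 5 calls it was the one kept in every other setting, whereas the others were lost without library 1 (adjusted p = 0.161 for Hist2h3c1, 0.0629 for Hist1h1c, 0.103 for Hist3h2a and 0.187 for Hist1h2be). The limbal class had Gpha2 at 2700 CPM, against 115 CPM in basal cells. It also held Krt13 at 953 CPM and Krt4 at 688 CPM, against 30.2 and 7.17 CPM in basal cells, and Mki67 at 45.9 CPM against 5.09 CPM. Krt4 was at 3237 CPM in conjunctival, 252 in wing and 187 in superficial cells. Krt13, at 6554 CPM in conjunctival cells, was also at 4743 in superficial and 1957 in wing cells. The part of limbal cells with these keratins or with Mki67 in the result was not tested.

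The annotation splits dividing corneal cells off the basal class but leaves limbal cells whole, so limbal cells were also set against basal, TAC1 and TAC2 cells summed. Of 55 tested members 33 were lower in limbal cells and 1 higher, against 19.5% and 19.1% of all genes tested, with a median of -1.42. Hist3h2a was the higher one, at 0.67 ± 0.110 (adjusted p = 1.93e-05). Of the calls in either direction that stayed testable with cells thinned to 2000 UMIs, 13 were kept, 12 were lost and 2 had the opposite sign. Hist1h3g had 0 UMIs in limbal cells and 137 in the whole layer, at least 2.28-fold lower, and Hist1h4b 0 and 90 UMIs, at least 1.497-fold lower, each against a floor of 3 counts over the group. Hist1h2af had 3 and 1046 UMIs, a CPM ratio of 0.0575 (95% exact interval 0.0118 to 0.169). Hist1h2ap, at -2.35, did not pass (adjusted p = 0.079), and was called lower without library 1 (adjusted p = 0.0238) and without library 3 (adjusted p = 0.0222).

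Conjunctival cells, of the neighbouring mucosa, had 25 of 35 tested members lower than basal cells and 5 higher, against 40.0% and 37.3% of all genes tested, with a median of -1.31. Hist1h4a had 3 UMIs in conjunctival and 136 in basal cells, a CPM ratio of 0.0450 (95% exact interval 0.0092 to 0.134), while Hist1h3d was at -3.16 and Hist2h2bb at -2.80. Hist1h4a, Hist1h3d and Hist2h2bb needed their basal counts to pass the filter on low counts, so their direction was largely fixed in advance. The 25 lower members include them. The 5 higher ones were Hist2h2be (2.32), Hist2h3c2 (1.96), Hist2h3c1 (1.90), Hist2h2aa1 (1.31) and Hist1h2bc (0.44, adjusted p = 0.00384). With total UMI scaling the median of all genes was -0.39 in this comparison, and the Hist1h2bc call was lost. It was -0.20 for wing against basal cells, 0.11 for limbal against basal cells and -0.14 for S-rich against G2/M-rich cells, and within 0.1 of the TMM value in the comparisons not named here or above.

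Some of the 16 members examined kept an order of libraries across classes, which is given as a description. Library 3 had the highest level of Hist1h1c and Hist2h2aa1 in 7 of 7 epithelial classes and of Hist1h4i and Hist1h4h in 6 of 7. It had the lowest level of Hist1h1e and Hist1h4d in 7 of 7, and of Hist1h1b, Hist1h3e and Hist2h2bb in 6 of 7. Others had no such order: over the 7 classes Hist1h2ap was highest in library 1 in 1, in library 2 in 3 and in library 3 in 3, and Hist1h3c in 2, 4 and 1. Age, sex, number of mice and depth cannot be told apart in these differences.

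Over the 21 epithelial sums of class and library, the gene outside the members with the pattern most like their summed level was Rad21, a cohesin subunit, with a Pearson correlation of 0.898 on the log2(CPM + 1) scale among 6986 genes with a mean of at least 10 CPM. Cenpe, a kinetochore motor, followed at 0.872 and the linker histone gene H1f0 at 0.868, with Mtmr14 at 0.855, Aspm at 0.850, the mitotic genes Ccnb2 and Plk1 at 0.845 each, H3f3b at 0.841, and Hmmr and Arl6ip1 at 0.838 each. Of these 10 genes, 3 are in the G2/M list and 0 in the S phase list. The sums share libraries, and the values describe likeness over classes only.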

How the data were processed

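Droplet 3′ libraries (10x Genomics chemistry, version 3.1, per the labels) were made from corneal epithelium of 3 pools of mice. The deposited tables hold raw UMI counts per gene and cell, made by the authors; Cell Ranger 5.0.0, Seurat 4 and mm10 are named in the submitters' processing notes without their role. How cells were filtered, whether doublets were removed and which annotation release was used is not stated there, and no doublet caller was run. Classes are the authors' deposited labels, and 2 library names carry the number of their sample while library 1 was matched by elimination.

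Counts were summed per library and class and tested with edgeR 4.0.16 in R 4.3.3 (TMM, filterByExpr, library as a block, Benjamini-Hochberg over all genes tested, threshold 0.05) after a check on simulated data. The library pairs the classes, since each class comes from the same 3 libraries. SE is the log2 fold change over the square root of the F statistic. P-values measure only the spread between these 3 pooled libraries, which differ in age, sex and pool size at once. Clustered histone genes, supply genes, cycle lists and markers were chosen with earlier results of these data known. Named are the 3 members of each type with the highest mean CPM, the 3 largest changes in each direction per comparison, and members called against their type; other genes named were chosen after their values were seen. Gene ends came from GENCODE M21 and promoters from RefSeq. Intervals and floors (3 counts) cover counting error only. Alternatives were DESeq2 1.42.0, RLE scaling, no filter, no block, thinning to 2000 UMIs, leaving out the 5% of cells with most UMIs or 1 library, and total UMI scaling, which was added after seeing the data.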

Additional observations from a re-analysis of the deposited data

How the results depend on the processing

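The counts of members called in TAC2 against basal cells, against TAC1 and between S-rich and G2/M-rich cells stayed within 1.5 times under every alternative run, except as given here. Without the replicate block, TAC1 against basal cells had 4 higher and 6 lower, limbal against basal 0 higher and 1 lower, superficial against wing 2 lower and conjunctival against basal 3 higher; the block changed no other count by over 1.5 times. DESeq2 gave 5 higher for TAC1 against basal, 0 higher and 1 lower for limbal against basal, and 1 lower for superficial against wing. With no filter on low counts limbal against basal had 4 lower. With RLE scaling, and without the 5% of cells with most UMIs, wing against basal had 2 higher. Thinning to 2000 UMIs per cell leaves fewer testable members: it gave 2 higher and 6 lower for TAC1 against basal, 34 higher of 35 tested for TAC2 against TAC1 (33 of them called without thinning), 1 higher for limbal against basal, 13 lower of 33 for limbal against the whole layer, 0 higher and 16 lower of 19 for wing against basal, 8 higher and 1 lower of 15 for superficial against wing, and 1 higher and 12 lower of 15 for conjunctival against basal. With total UMI scaling, added after seeing the data, limbal against basal had 5 higher and 1 lower, limbal against the whole layer 2 higher, and superficial against wing 8 higher and 16 lower. In that last comparison Hist3h2a was at -0.90, Hist1h2ap at -0.32, Hist1h2ae at -0.39 and Hist1h1e at -0.24, each positive by TMM, where Hist3h2a had no call. Leaving out 1 library at a time gave 0 to 1 lower for TAC2 against basal (1 without library 3), 0 to 5 higher and 1 to 3 lower for limbal against basal, 1 to 3 higher for limbal against the whole layer, 2 to 2 higher for wing against basal, 2 to 3 lower for superficial against wing, and 0 to 2 lower for S-rich against G2/M-rich cells. Thinned to 1000 UMIs, the share of cells with a member UMI was 75.03% in TAC2, 27.6% in TAC1, 38.3% in limbal, 40.9% in superficial, 24.2% in wing, 26.8% in conjunctival, 41.0% in immune and 36.1% in basal cells. The causes were not tested except where fewer genes or cells enter by construction. Members with few UMIs, and immune cells as a whole, are limited by depth.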
